A study of Mus musculus with 20 samples.

Results

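RNA sequencing measured 39 interferon-stimulated genes of the 55471 genes in the count table of chronically inflamed mouse epidermis and pancreas and their controls. The genes were chosen by name as well-known targets of interferon signalling, with earlier results of these data known, and their Ensembl identifiers were matched to mouse symbols; all 39 were in the table. In the skin model, WT C57BL/6 mice aged 4 to 6 weeks were sensitized on the abdomen with 0.5% and then 0.25% DNFB (2,4-dinitro-1-fluorobenzene, a contact allergen) and were then challenged on the back with 0.25% DNFB 3 times per week for 22 days. Their controls received the carrier, acetone with olive oil. In the pancreas model, WT mice were injected intraperitoneally with 50 µg/kg caerulein (a peptide that overstimulates acinar secretion) in PBS, or with PBS only, every hour over 6 hours on each of 3 days per week, for 3 weeks. Each group had 5 libraries, of isolated back-skin epidermis (acetone and DNFB) or of pancreas tissue (PBS and caerulein), and every library is named by its group and label number. The mice of the skin protocol were of both sexes, the sex of each library is not given, and no age is stated for the pancreas mice. Nothing in the labels says that the 5 libraries of a group came from 5 animals, so the p-values measure the spread between these libraries, which may be partly technical.

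Interferons are secreted proteins that warn cells of infection or damage. Type I and type III interferons act through receptors that activate JAK kinases and a transcription factor complex that contains STAT2 and IRF9 and binds the interferon-stimulated response element in gene promoters, whereas interferon gamma acts mainly at GAS elements. The proteins made in response block viral entry, degrade or sense foreign RNA, tag proteins with ISG15 and feed back on the pathway, and epithelia and leukocytes both make them.

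The libraries held between 791491 and 2232039 counts, but 3 predicted genes that resemble satellite repeats took 37.4% to 93.0% of them. The counts outside these genes ranged from 106497 to 1082420 in acetone, 159355 to 698588 in DNFB, 86345 to 217668 in PBS and 104801 to 614708 in caerulein libraries. All 39 members together received 74 to 1887 counts per acetone library, 223 to 872 per DNFB library, 49 to 150 per PBS library and 138 to 2858 per caerulein library. A member can be measured only where its count exceeds the 3 counts that a count of 0 allows, and 4 to 9 members did so in the PBS libraries against 10 to 39 in the caerulein libraries. In epidermis the range was 8 to 39 members in acetone and 21 to 38 in DNFB. Acetone 11 and 12 had far more usable counts than acetone 1, 2 and 3, and caerulein 9 and 18 had the fewest of their group. Keratinocyte markers summed to 206 to 3116 normalized CPM (CPM, a count scaled to library sizes corrected by TMM, edgeR's trimmed mean method) in epidermis and 1.46 to 14.5 in pancreas. Acinar markers summed to 723 to 71689 in pancreas and 1.96 to 51.6 in epidermis, so the labelled tissues carried their defining genes.

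**Figure D1:**
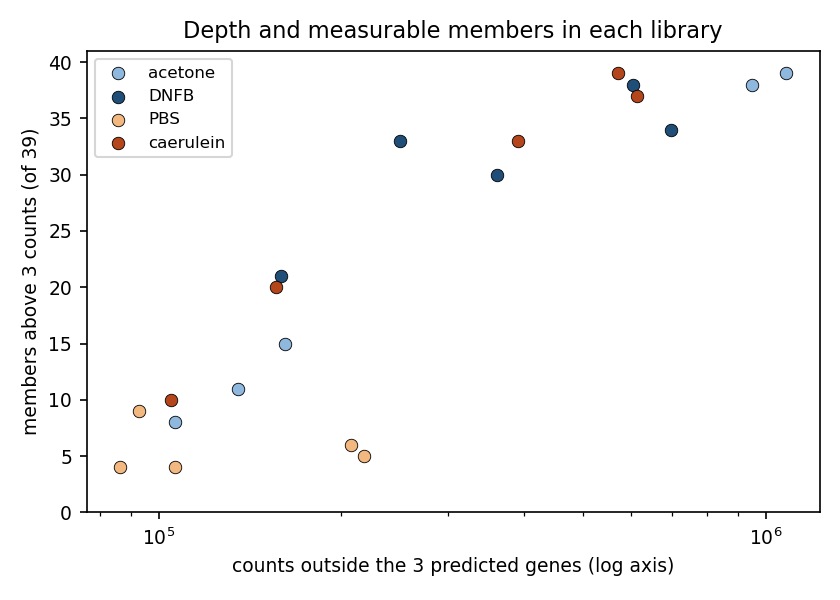
Each point is a library, with its counts outside the 3 predicted genes on a log horizontal axis and the number of the 39 members above 3 counts on the vertical axis. The 5 PBS libraries sit at 4 to 9 members, while 3 caerulein libraries reach 33 to 39.

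Promoter sequence was available for 30 members from RefSeq on GRCm38.p6, and not for Oas2, Mx1, Mx2, Usp18, Ifi27, Dhx58, Parp14, Rtp4 and Zbp1. The 250 bases before each start site were searched on both strands for GAAANNGAAA, the core of the interferon-stimulated response element, where N is any base. A match was found in 13 of the 30 members (43.3%) and in 3.46% of 27025 genes. The GAS core, TTCNNNGAA, was found in 7 of the 30 (23.3%) and in 8.13% of all genes, and matches of both motifs may share bases. The following 6 promoters are examples from the 10 members that differed between PBS and caerulein pancreas. Every GAAANNGAAA match on either strand is in capitals and all other bases are in lower case, 5′ to 3′ in the gene's direction. Ifitm2 lies at chr7:140955962-140956211 on the minus strand, Ifitm3 at chr7:141010745-141010994 on the minus strand, Gbp2 at chr3:142620413-142620662 on the plus strand, Oasl2 at chr5:114896684-114896933 on the plus strand, Ifit3 at chr19:34583279-34583528 on the plus strand and Oas1a at chr5:120907526-120907775 on the minus strand.
Ifitm2: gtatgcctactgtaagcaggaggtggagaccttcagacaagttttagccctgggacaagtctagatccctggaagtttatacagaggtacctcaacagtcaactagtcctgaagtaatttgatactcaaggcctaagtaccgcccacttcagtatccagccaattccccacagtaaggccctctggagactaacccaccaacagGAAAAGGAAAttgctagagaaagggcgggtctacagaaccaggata
Ifitm3: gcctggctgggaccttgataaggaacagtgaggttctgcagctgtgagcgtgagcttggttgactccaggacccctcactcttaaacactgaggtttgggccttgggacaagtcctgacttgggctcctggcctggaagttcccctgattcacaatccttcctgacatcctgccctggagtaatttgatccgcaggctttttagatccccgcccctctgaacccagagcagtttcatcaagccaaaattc
Gbp2: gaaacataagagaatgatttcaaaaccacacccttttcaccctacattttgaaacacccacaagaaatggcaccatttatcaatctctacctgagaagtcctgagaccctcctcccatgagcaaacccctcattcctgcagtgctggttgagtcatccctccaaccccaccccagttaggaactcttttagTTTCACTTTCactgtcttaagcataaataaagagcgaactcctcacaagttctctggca
Oasl2: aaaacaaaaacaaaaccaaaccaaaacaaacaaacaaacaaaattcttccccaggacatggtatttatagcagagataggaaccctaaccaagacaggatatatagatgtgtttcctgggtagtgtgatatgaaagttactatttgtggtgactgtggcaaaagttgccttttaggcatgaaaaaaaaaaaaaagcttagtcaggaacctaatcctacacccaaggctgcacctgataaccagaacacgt
Ifit3: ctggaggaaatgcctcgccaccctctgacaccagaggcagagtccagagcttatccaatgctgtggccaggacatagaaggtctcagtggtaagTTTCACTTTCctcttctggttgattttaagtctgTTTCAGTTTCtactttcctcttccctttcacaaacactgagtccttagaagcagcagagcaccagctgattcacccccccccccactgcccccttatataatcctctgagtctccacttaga
Oas1a: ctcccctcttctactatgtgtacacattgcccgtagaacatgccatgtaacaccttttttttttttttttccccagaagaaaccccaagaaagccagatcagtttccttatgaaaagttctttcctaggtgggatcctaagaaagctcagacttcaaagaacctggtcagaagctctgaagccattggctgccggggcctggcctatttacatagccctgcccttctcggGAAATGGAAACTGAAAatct
The first base of the match lies at -46 in Ifitm2 and at -59 in Gbp2, counted from the start site. Ifit3 has matches at -156 and -122, and Oas1a has overlapping matches at -20 and -14. Ifitm3 and Oasl2 have none in this window. Of the members that differed but are not shown, Gbp7 has a match at -53. Irf1, Ifi35 and Isg20 have none in any annotated window (3 for Isg20). Isg15 has 3 matches, at -78, -72 and -66. A match is a description of the letters and was not tied to binding here.

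In pancreas, Ifitm2 and Ifitm3, neighbouring genes for membrane proteins that restrict viral entry, rose after caerulein, and they were the only 2 members with enough counts for the test across genes. In edgeR's quasi-likelihood test with Benjamini-Hochberg adjustment over 946 genes, 8.14% of genes were called higher and 4.02% lower at an adjusted p under 0.05, and both tested members were called higher. Both passed the filter on low counts through the caerulein libraries, where they were high, so their share cannot be read against that of all genes. Ifitm3 (chr7:141009586-141010770) stood at 13.2, 45.3, 9.92, 21.6 and 7.73 normalized CPM in PBS 7, 8, 15, 16 and 17 and at 36.4, 212, 47.6, 87.3 and 126 in caerulein 9, 10, 18, 19 and 20. Caerulein 10 was highest, and 4 of the 5 caerulein libraries exceeded every PBS library, of which PBS 8 was the highest. The means were 19.5 ± 15.3 and 102 ± 71.2 (SD, n = 5 each), and the fitted log2 fold change was 2.36 (SE 0.72, edgeR adjusted p = 0.0384). Ifitm2 (chr7:140954837-140955987) stood at 13.2, 28.8, 3.97, 5.40 and 4.64 in the same PBS libraries and at 19.4, 145, 33.5, 39.4 and 50.3 in the caerulein libraries. Its order of libraries was alike, with PBS 8 above caerulein 9. The means were 11.2 ± 10.5 and 57.5 ± 50.2 (SD, n = 5 each), with a log2 fold change of 2.31 (SE 0.74, edgeR adjusted p = 0.0446).

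Both calls were close to the threshold and were lost when PBS 7, 15, 16 or 17 or caerulein 10, 19 or 20 was left out, with log2 fold changes of 1.65 to 2.48 for Ifitm2 and 1.91 to 2.47 for Ifitm3. They held without PBS 8, caerulein 9 or caerulein 18. Usable depth was higher in caerulein 10, 19 and 20 than in every PBS library, and with its log2 as a covariate the log2 fold changes were 1.12 (SE 0.55) and 1.17 (SE 0.58), with an edgeR adjusted p of 0.364 for both. Since sex is not labelled, the level of Ddx3y, a gene of the Y chromosome, was also added to the fit, and they were 2.01 and 2.19, with edgeR adjusted p-values of 0.0983 and 0.0758. Ifitm2 also shares 38.7% of its 25-base words with the overlapping Gm45717, so its count depends on how reads were divided.

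Leukocyte, fibroblast and acinar markers moved in the same pancreas libraries. Of 20 leukocyte markers, 16 had a higher mean log2 level in caerulein, and their summed level was 36.6 to 196 normalized CPM in PBS and 133 to 1719 in caerulein. Lyz2, a lysozyme of macrophages and neutrophils, was called higher, at 16.8 ± 27.2 against 424 ± 470 (SD, n = 5 each, edgeR adjusted p = 0.0166). Cd207, a Langerhans cell marker, was at 0 in every pancreas library. Ptprc, the general leukocyte marker, had 57 PBS and 485 caerulein counts, which are not scaled for depth. All 8 fibroblast and stellate cell markers had a higher mean, with sums of 22 to 483 in PBS and 130 to 1119 in caerulein. All 10 acinar markers had a lower mean, 7 were called lower, and their sums were 6440 to 71689 in PBS and 723 to 7847 in caerulein. The part of these cell types in the members' differences was not tested. In bulk tissue, more cells of a type and more RNA per cell cannot be told apart.

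**Figure D2:**
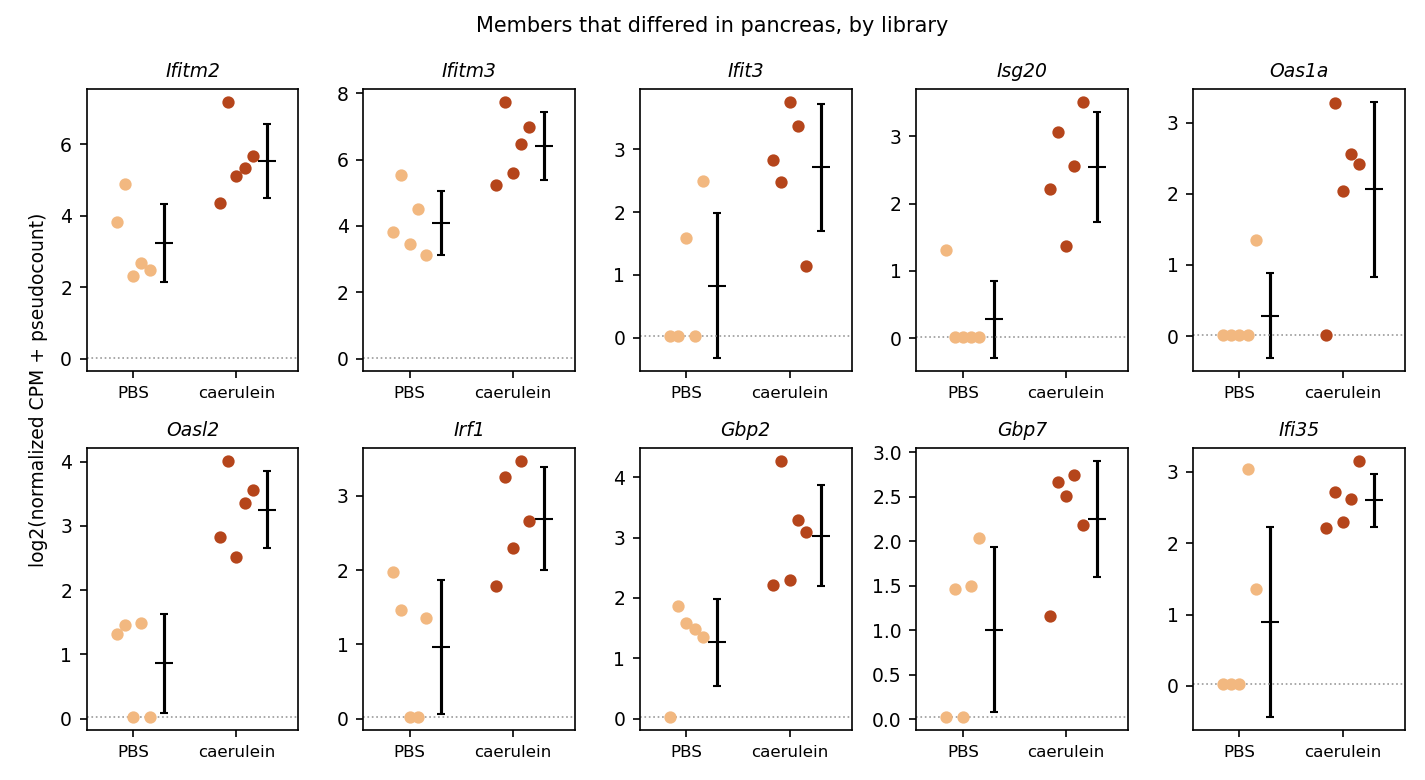
Points are the 5 PBS and 5 caerulein libraries of pancreas, on a log2 axis of normalized CPM plus a pseudocount of 1.01, with the mean and SD beside them and the dotted line at a count of 0. For Isg20, Oasl2 and Gbp2 every caerulein library lies above every PBS library; for the other 7 genes the groups overlap.

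The other 37 members had too few pancreas counts for edgeR's filter, and 36 of them had at least 10 counts in all and were compared one by one with a two-sided exact permutation test of the mean of log2(normalized CPM + 1.01), where 1.01 is 1 count of the median library. The test runs over 252 assignments of 5 against 5 libraries, its smallest possible p is 0.00794, and it was not adjusted over genes. By this test 8 members were higher in caerulein at p under 0.05 and 0 were lower, where 7.51% of the 18991 comparable genes were higher and 3.7% lower. The difference was above 0 in 32 of the 36 members, against 54.6% of the comparable genes, and its median was 0.87 against 0.09 on the log2 scale. With Rtp4, which had no PBS count, set at the bound that a floor of 3 counts gives, the median was also 0.87. The groups did not overlap for 3 members, all higher in caerulein, where 1.5% of these genes were wholly higher and 0.785% wholly lower. Of the 39 members, which were chosen with earlier results known, 23 had at most 3 counts in every PBS library. Many thus reached 10 counts through the caerulein libraries, so the members' shares and median cannot be read against those of all genes.

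Among the cytosolic antiviral effectors, 4 of 14 members were higher by the exact test. Oasl2 (chr5:114896936-114912234), an oligoadenylate synthetase-like antiviral protein, had 1, 2, 0, 1 and 0 counts in PBS 7, 8, 15, 16 and 17 and 5, 76, 6, 36 and 55 counts in caerulein 9, 10, 18, 19 and 20. Every caerulein library was above every PBS library, at 4.68 to 15.1 against 0 to 1.80 normalized CPM. The mean log2 difference was 2.39 (exact permutation p = 0.00794, the smallest possible). Isg20 (chr7:78913424-78920396), an exonuclease that degrades single-stranded RNA, had 1 count in PBS 7 and 0 in the other PBS libraries, against 3, 37, 2, 19 and 53 counts in caerulein. The groups did not overlap, although caerulein 18, at 1.56 normalized CPM, lay just above PBS 7 at 1.46. The mean log2 difference was 2.27 (exact permutation p = 0.00794), and the ratio of the pooled counts was 25 with a 95% counting interval of 4.40 to 997. Oas1a (chr5:120896256-120907521), a synthetase of the 2-5A messenger that activates RNase L, had 1 count in PBS 17 and 0 in the other PBS libraries, and 0, 44, 4, 19 and 22 counts in caerulein. Caerulein 9 was at 0 like most of the PBS libraries, the mean log2 difference was 1.78 (exact permutation p = 0.0476), and the pooled ratio was 19.5 with a counting interval of 3.42 to 780. Oas1a shares 72.4% of its 25-base words with Oas1g, so reads of the 2 genes can be exchanged. Ifit3 (chr19:34583531-34588731), which binds foreign RNA with other IFIT proteins, stood at 0, 0, 1.98, 0 and 4.64 normalized CPM in PBS and at 6.06, 4.56, 12.5, 9.27 and 1.18 in caerulein. Caerulein 20 lay below PBS 15 and 17, and the mean log2 difference was 1.88 (exact permutation p = 0.0476). Ifit3 shares 66.1% of its words with Ifit3b, which was not past the threshold (difference 0.75, exact permutation p = 0.246).

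Gbp2 and Gbp7 were higher among the GTPases, which act on membranes of pathogens and infected cells. Gbp2 (chr3:142620602-142638008) had 0, 3, 1, 1 and 1 counts in the PBS libraries and 3, 92, 5, 34 and 38 in the caerulein libraries. The groups did not overlap, at 0 to 2.62 against 3.64 to 18.2 normalized CPM, and the mean log2 difference was 1.77 (exact permutation p = 0.00794). Gbp7 (chr3:142530342-142550149) had 0, 2, 0, 1 and 2 against 1, 27, 6, 22 and 18 counts. Caerulein 9 fell within the PBS range, and the mean log2 difference was 1.25 (exact permutation p = 0.0476). Gbp3 had 1 PBS count against 67 caerulein counts with a difference of 1.46 (exact permutation p = 0.0873). Mx1 and Mx2, of the dynamin-like GTPase family, had 2 and 3 PBS counts and 7 and 18 caerulein counts. The annotation lists Mx2 as a polymorphic pseudogene.

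Of the 4 transcriptional regulators, Irf1 was higher. Irf1 (chr11:53770014-53778374), induced mainly by interferon gamma, stood at 2.93, 1.74, 0, 0 and 1.55 normalized CPM in PBS and at 2.42, 8.53, 3.90, 10.04 and 5.31 in caerulein. Caerulein 10, 18, 19 and 20 exceeded every PBS library, and the mean log2 difference was 1.72 (exact permutation p = 0.0159). Irf7, the amplifier of type I interferon production, had a difference of 0.83 (exact permutation p = 0.190), and Irf9 and Stat2, both subunits of the complex that binds the response element, had differences of 0.51 and -0.17 (exact permutation p = 0.437 and 0.810).

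Ifi35, an interferon-induced leucine zipper protein (chr11:101448407-101458698), had 0, 0, 0, 4 and 1 counts in PBS and 3, 28, 5, 20 and 40 in caerulein. PBS 16 reached 7.19 normalized CPM with its 4 counts, within the caerulein range of 3.64 to 7.87, and the mean log2 difference was 1.71 (exact permutation p = 0.0397). The membrane tether Bst2, next after Ifitm3 and Ifitm2 in level per exon length in pancreas, stood at 5.86, 10.5, 5.95, 3.60 and 1.55 in PBS and at 3.64, 17.7, 3.90, 13.6 and 21.8 in caerulein. Caerulein 9 and 18 lay within the PBS range, and its difference of 0.89 was not past the threshold (exact permutation p = 0.183). None of the 4 RNA and DNA sensors (Ifih1, Ddx58, Dhx58, Zbp1) and none of the 4 modifiers (Isg15, Usp18, Trim25, Parp14) passed. Isg15, the ubiquitin-like tag, had 1 count in PBS and 17 in caerulein. Rtp4, a chaperone of receptor trafficking, had 0 counts in PBS and 0, 33, 0, 25 and 19 in caerulein. Against a floor of 3 counts over the PBS group its pooled level was at least 5.63-fold higher, with an exact permutation p of 0.167. Samd9l, Parp14, Stat2 and Oasl1 had lower means in caerulein, with log2 differences of -0.53, -0.12, -0.17 and -0.08. Parp14, Stat2 and Oasl1 turned positive with no filter in edgeR (0.44, 0.35 and 1.03) and in DESeq2 (0.20, 0.13 and 0.81).

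Depth limits these values: 1 count is worth 0.872 to 1.98 normalized CPM in PBS libraries and 0.197 to 1.21 in caerulein libraries, and 23 members had at most 3 counts in every PBS library. Leaving out single libraries kept Oasl2, Isg20, Gbp2 and Irf1 under an exact permutation p of 0.05 in all 10 cases. Ifit3 lost it without PBS 7, 8, 15 or 16 or caerulein 9 or 18 (differences 1.34 to 2.07). Oas1a lost it without any one library but PBS 17 or caerulein 9 (1.40 to 1.68), Ifi35 without any but PBS 16 (1.40 to 1.86) and Gbp7 without any but PBS 17 or caerulein 9 (0.91 to 1.31). DESeq2, which gave an adjusted p to 28 members, called 7 of them higher at an adjusted p under 0.05, against 7.44% of its 8618 genes: Ifitm2, Ifitm3, Oasl2, Isg20, Oas1a, Irf1 and Gbp2. With no filter edgeR called 10 members higher, against 3.18% of 38895 genes, and with a minimum count of 3 it called Oasl2, against 1.49% of 7032 genes.

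In epidermis, no member was called between DNFB and acetone, and the largest fitted differences were within the spread of the libraries. The filter left 21 of the 39 members, and edgeR called 0 of them at an adjusted p under 0.05, where 0.0275% of 7265 genes were called higher and 0.0138% lower. At an unadjusted p under 0.05 edgeR also gave 0, where 2.95% of genes were higher and 2.86% lower, and DESeq2 called 0 of 37 members, against 0.164% of its genes higher and 0.173% lower. The fitted log2 fold change was above 0 in 13 of the 21, against 51.7% of all tested genes, with a median of 0.07 against 0.02. Standard errors were 0.48 to 0.73 on the log2 scale, and the 95% intervals ran from -1.59 to 1.04 for Ifitm3 and from -1.48 to 1.61 for Ifitm2.

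Rsad2 (viperin, which blocks viral RNA synthesis) had the largest fitted log2 fold change, 1.34 (SE 0.67, 95% interval -0.08 to 2.76, edgeR adjusted p = 0.884), at 3.56 ± 3.65 normalized CPM in acetone and 10.5 ± 6.84 in DNFB (SD, n = 5 each). Ifit2 had 0.89 (SE 0.55) and Ifit3 0.63 (SE 0.53). Rtp4 had 0.99 (SE 0.72) and Samd9l, a growth and translation inhibitor, 0.85 (SE 0.68). At the other end Irf1 had -0.74 (SE 0.54), and all 4 regulators had a lower mean log2 level in DNFB, by 0.11 to 0.34, with none past the threshold. Without acetone 11 and 12 the fitted log2 fold changes of Irf1 and Irf9 were 0.12 and 0.06, and with Ddx3y in the fit that of Irf9 was 0.19.

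The members with the highest level per exon length in epidermis were Ifitm3, Ifitm2 and Gbp2, at 37.5, 21.6 and 4.82 normalized CPM per kilobase over the 10 libraries. Ifitm3 stood at 29.0, 25.6, 8.90, 57.2 and 112 normalized CPM in acetone 1, 2, 3, 11 and 12 and at 13.7, 32.3, 55.3, 41.9 and 54.7 in DNFB 4, 5, 6, 13 and 14. Acetone 11 and 12, the deepest libraries, were the highest of their group, and the log2 fold change was -0.28 (SE 0.62, edgeR adjusted p = 0.976). Ifitm2 was at 0 in acetone 1 and 3 and at 25.6, 31.6 and 55.1 in acetone 2, 11 and 12, and at 18.5, 15.3, 27.7, 33.3 and 32.3 in DNFB. The 5 DNFB libraries lay within the acetone range, with a log2 fold change of 0.07 (SE 0.73, edgeR adjusted p = 0.997). Gbp2 stood at 6.44, 5.68, 3.56, 8.98 and 44.0 in acetone and at 1.79, 32.3, 29.9, 31.3 and 39 in DNFB. It was high in 4 of the 5 DNFB libraries but also in acetone 12, and the log2 fold change was 0.77 (SE 0.71, edgeR adjusted p = 0.965).

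**Figure D3:**
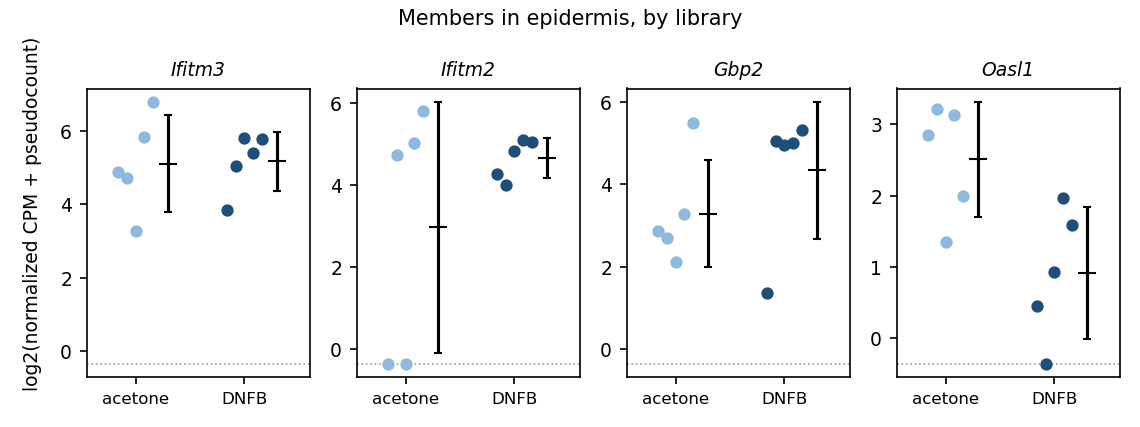
Points are the 5 acetone and 5 DNFB libraries of epidermis on a log2 axis of normalized CPM plus a pseudocount of 0.776, with the mean and SD beside them and the dotted line at a count of 0. Groups overlap in all 4 genes; Gbp2 is low in DNFB 4 and Ifitm2 is at 0 in acetone 1 and 3.

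Below the filter, 18 members were compared by the exact test in epidermis, and 0 were higher and 1 lower at p under 0.05, where 5.55% of 18691 comparable genes were higher and 2.42% lower. Oasl1 (chr5:114923240-114937915), a relative of the oligoadenylate synthetases that dampens Irf7 translation, was the lower one. It had 2, 3, 1, 41 and 12 counts in the acetone libraries and 1, 0, 3, 8 and 2 in the DNFB libraries. At 6.44, 8.52, 1.78, 8.0 and 3.22 against 0.595, 0, 1.12, 3.13 and 2.23 normalized CPM the groups overlapped, and 3 of the 5 DNFB libraries lay below every acetone library. The mean log2 difference was -1.60 (exact permutation p = 0.0317), and the p rose to 0.0556 or 0.0635 without acetone 1, 2 or 11 or DNFB 4, 5 or 6 (differences of -1.62 to -1.25). Scaled by library totals only, the difference was -1.20 (exact permutation p = 0.198). The difference was above 0 in 9 of the 18, against 59.8% of the comparable genes, and no member had groups that did not overlap, where 1.28% of these genes had DNFB and 0.53% acetone wholly higher. Mx2 had at most 3 counts in every DNFB library. Leukocyte markers summed to 83.8 to 852 normalized CPM in acetone and 71.4 to 506 in DNFB, with a higher mean in 15 of the 20 and none of the 9 tested called. Fibroblast markers summed to 144 to 643 in acetone and 117 to 195 in DNFB, with none of 5 tested called. The part of either in the members' values was not tested.

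The mean log2 level over the 39 members gives each library 1 value. In epidermis it was 1.95, 2.32, 1.61, 2.37 and 3.10 in acetone 1, 2, 3, 11 and 12 and 2.12, 2.77, 2.24, 2.85 and 3.31 in DNFB 4, 5, 6, 13 and 14, so that acetone 12 and DNFB 14 led and the groups overlapped. The difference was 0.39 (SE 0.33, n = 5 each). In pancreas the list mean was 1.13, 1.24, 1.28, 1.55 and 1.08 in PBS 7, 8, 15, 16 and 17 and 1.76, 2.70, 1.94, 2.41 and 2.32 in caerulein 9, 10, 18, 19 and 20. All caerulein libraries were above all PBS libraries, by 0.97 (SE 0.19) on average, or 0.90 without Ifitm2 and Ifitm3. The size depends on the scale: it was 1.95 with a pseudocount of 0.1 count, 0.45 with 5 counts and 2.19 with library totals only. Of the 39 members, 23 had at most 3 counts in every PBS library. Usable depth was higher in caerulein 10, 19 and 20 than in every PBS library, and its part in the list mean was not tested. The difference was 1.04 (SE 0.47) for PBS 7 and 8 against caerulein 9 and 10. It was 0.92 (SE 0.20) for PBS 15, 16 and 17 against caerulein 18, 19 and 20. Nothing in the labels says that these numbers mark batches. Ifitm2 and Ifitm3 held 13.1% to 56.7% of the members' counts in the PBS libraries (median 20%, with PBS 8 the highest) and 33.3% to 63.1% in the caerulein libraries (median 42.2%). The medians were 17.6% in acetone and 17.9% in DNFB libraries.

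**Figure D4:**
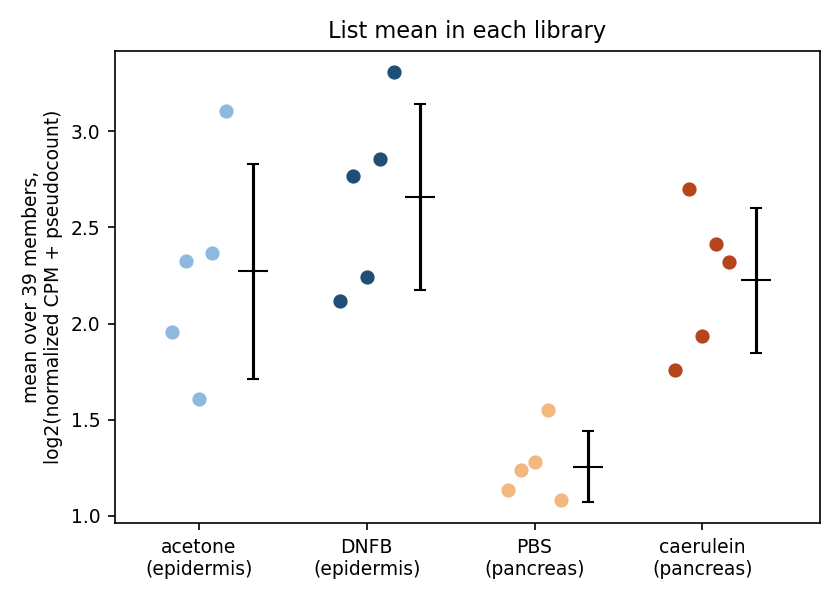
Each point is 1 library's mean log2 level over the 39 members, by group, with the group mean and SD. The caerulein libraries, at 1.76 to 2.70, lie above the PBS libraries, at 1.08 to 1.55, and the acetone and DNFB libraries overlap; the tissues were normalized separately, so levels compare only within a tissue.

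Whether the response differed between tissues was tested in a fit of all 20 libraries. Of the 26 members tested, 0 had an adjusted p under 0.05 in edgeR's interaction term (DNFB response minus caerulein response), where 0.216% of 8336 genes were lower and 0.048% higher. At an unadjusted p under 0.05, 6 members were lower (Oasl2, Irf1, Ifitm3, Oas1a, Gbp3 and Rtp4) against 12.2% of genes, and 0 were higher against 6.32%. The smallest p-values were those of Oasl2 at -2.82 (SE 0.92, edgeR adjusted p = 0.111) and Irf1 at -2.69 (SE 0.95, edgeR adjusted p = 0.137). Between the control tissues (acetone epidermis minus PBS pancreas) 0 of the 26 were called, against 6.83% (higher) and 3.71% (lower) of all genes. Before adjustment, where 17.8% of genes lay above and 9.51% below 0 at p under 0.05, Irf1 and Oasl2 were higher in epidermis, by 1.98 (SE 0.76, edgeR adjusted p = 0.0866) and 1.78 (SE 0.76, edgeR adjusted p = 0.124), and Samd9l was lower by a log2 difference of -1.56 (SE 0.70, edgeR adjusted p = 0.147). Without acetone 3, in which Samd9l was highest of the acetone libraries, Irf1 and Samd9l passed in both contrasts, with interaction terms of -2.97 and 3.06 (edgeR adjusted p = 0.0480 and 0.0330) and control differences of 2.24 and -2.85 (edgeR adjusted p = 0.0357 and 0.00470).

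**Figure D5:**
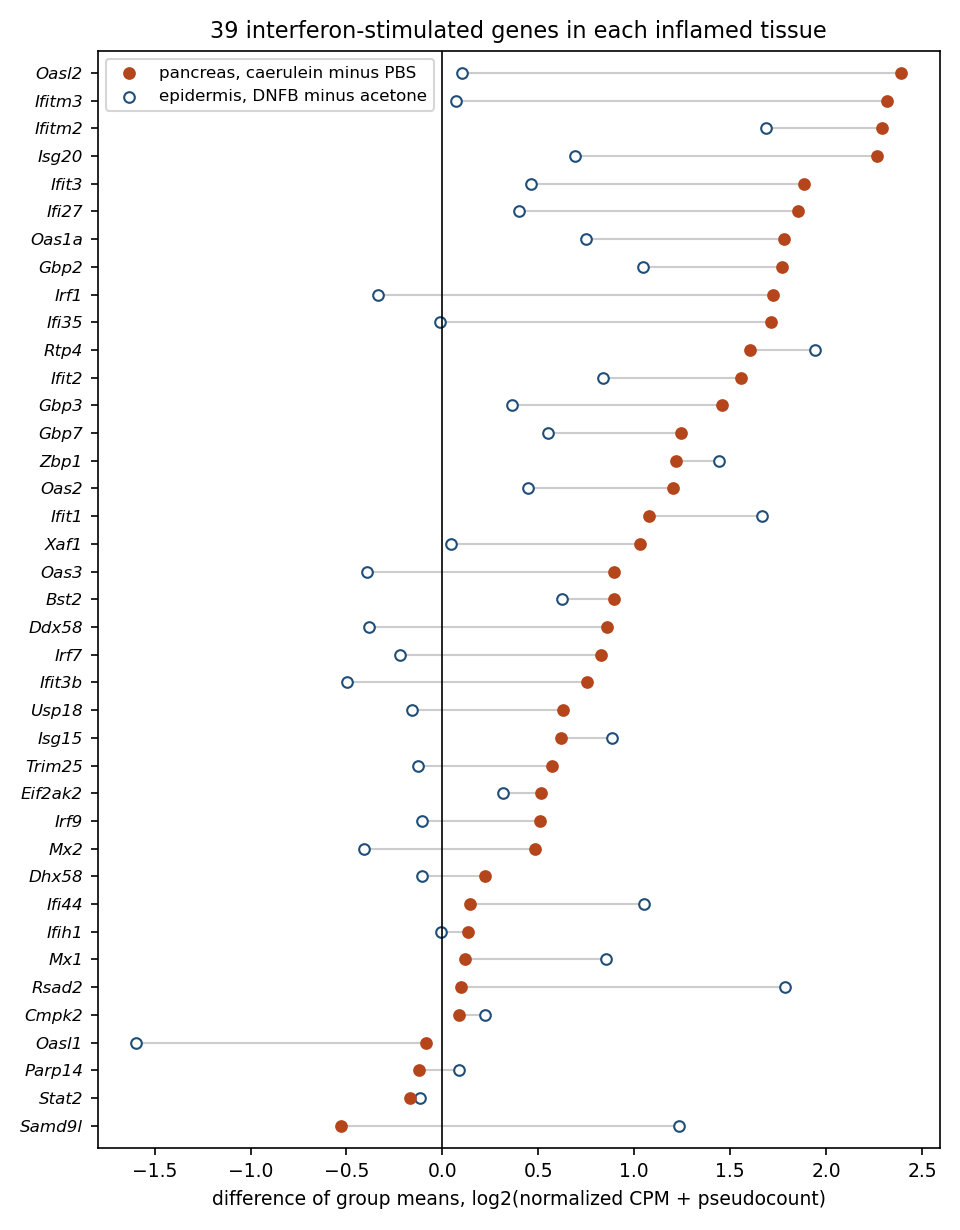
For each of the 39 members, the filled point is the caerulein minus PBS difference and the open point the DNFB minus acetone difference of group mean log2 levels, ordered by the pancreas value. In pancreas 35 members lie right of 0, and in epidermis 25 do.

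The interferon genes themselves were barely measurable in pancreas. Ifna1, Ifna5, Ifnb1, Ifne, Ifng and Ifnk had 0 counts in every pancreas library, and the 10 interferon genes listed had at most 4 counts in any pancreas group. Of 16 ligands and receptors none reached edgeR's test, and Il10rb and Ifnlr1, chains of the type III receptor, were higher by the exact test, at 6 against 130 and 0 against 12 counts in PBS and caerulein (exact permutation p = 0.0397 and 0.0476). Of 12 JAK-STAT genes, 9 had a higher mean in caerulein with a median difference of 0.93, and 3 were higher by the exact test, where 54.6% of comparable genes had a higher mean and 7.51% were higher by that test. Socs3, an inhibitor of JAK kinases, had 1 count in PBS and 369 in caerulein (difference 3.47, exact permutation p = 0.00794). Jak1 and the phosphatase gene Ptpn1 were the others, with differences of 2.43 and 1.83 (exact permutation p = 0.0159 each). The JAK-STAT list was chosen with earlier results known and had no minimum count, so its shares cannot be read against those of all genes. Of 16 sensors and adaptors upstream of interferon, 12 had a higher mean, and none passed, the smallest exact permutation p being 0.0635 for Myd88.

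Another 55 interferon-induced genes that are not members were listed as well. In pancreas 47 of them had a higher mean, with a median difference of 0.74, and 13 had an exact permutation p under 0.05, with 12 higher and Ifit1bl1 lower. Over all comparable genes 54.6% had a higher mean, with a median difference of 0.09. By the exact test 7.51% of them were higher and 3.7% lower. The list was chosen with earlier results known and had no minimum count. Its shares and median in either tissue thus cannot be read against those of all genes. Slfn2, Ifi205 and Ifi47 had 0 PBS counts against 198, 203 and 116 in caerulein, Psmb8 (an immunoproteasome subunit) had 7 against 378, and Lgals3bp had 13 against 460 (exact permutation p = 0.00794 for each). In epidermis 20 of the 55 were tested and none was called. By the exact test 2 of the 55 were under 0.05, both higher, where 5.55% of comparable genes were higher and 2.42% lower. Ifitm1, the neighbour of Ifitm2 and Ifitm3, had 9 counts in acetone and 105 in DNFB (difference 2.58, exact permutation p = 0.0238), and Ms4a4c had 4 and 15 (difference 1.48, exact permutation p = 0.00794). Of 16 ligands and receptors 1 was under 0.05 by that test, Ifnb1, with 0 counts in acetone and 6 in DNFB (exact permutation p = 0.0476). Its 6 counts are fewer than the 10 required of the members and comparable genes, so no change of Ifnb1 can be read from them. Socs3 and Ifngr1 had negative log2 fold changes of -1.53 and -1.22 that did not pass adjustment (edgeR adjusted p = 0.763 and 0.811).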

How the data were processed

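Libraries of WT mouse epidermis (acetone, DNFB) and pancreas (PBS, caerulein) were made by the authors with a modified SMART-Seq2 protocol, 5 per group. The authors mapped reads to mm10 (GRCm38) with STAR 2.5.3, and the expected counts per gene that they deposited, without normalization, came from RSEM 1.3.1. The gene annotation is not given in the sources used here, and names and coordinates came from GENCODE M21 (55144 of 55471 identifiers matched). 0 columns of per-sample values were left unused. Counts were rounded here, since 94.7% were whole.

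R 4.3.3 and edgeR 4.0.16 were used, with filterByExpr at a minimum count of 10, TMM normalization, quasi-likelihood tests and Benjamini-Hochberg adjustment over all genes tested (threshold 0.05). Each tissue was fitted on its own 10 libraries, and the tissue interaction and the control contrast on all 20. Members below the filter were compared by exact permutation of log2(normalized CPM + 1 count of the median library), a scale on which fold changes of low genes are understated. DESeq2 1.42.0 was an alternative, as were other scalings, filters, covariates and left-out libraries. On simulated counts with 200 genes changed by a log2 fold of 3, edgeR recovered 87.5% in skin (7265 genes, 8 false calls) and 96.0% in pancreas (946 genes, 13 false calls). Recovery of smaller changes was not tested. The largest log2 fold changes that edgeR fitted for members were 1.34 in epidermis (Rsad2) and 2.36 in pancreas (Ifitm3).

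Per-library values are given for members past an adjusted or unadjusted threshold and for the 3 with the highest level per exon length in each tissue. Members and lists were chosen with earlier results of these data known. A gene of the pathway lists is not reported here. Intervals of pooled ratios and floors cover counting error only, and those of fitted fold changes include the spread between libraries. None of the 40 pairs of libraries within a group was identical, and the chi-square per degree of freedom between their counts was at least 3.01, above sampling noise. Labels number the libraries 1 to 20 without repeating a number.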

Additional observations from a re-analysis of the deposited data

Results flagged for a closer look

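In the 27 combinations of group and member (or list mean) examined, 1 library stood apart from the other 4 by more than Dixon's critical gap ratio for 5 values. Gbp2 in DNFB 4 was at 1.79 normalized CPM, while the other DNFB libraries were at 29.9 to 39. The gap ratio, taken on log2 levels, was 0.905. The value in DNFB 4 is 3 counts, which does not exceed the floor. Chance alone gives about 1 such gap in 20 groups. Groups in which every library had at most 3 counts were not examined. No member's response differed between the tissues by the adjusted interaction test.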

How the results depend on the processing

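No paired analysis was possible because the label numbers run from 1 to 20 and none is shared between groups. The count of 0 members called in epidermis held under every alternative run. In pancreas the count of 2 was 1 with TMMwsp scaling, with a minimum count of 3 (then Oasl2) and without the predicted genes, 0 with Ddx3y or with usable depth as a covariate, 7 with DESeq2, 10 with no filter and 9 without caerulein 9 and 18, and 0 to 2 with single libraries left out. Depth as a covariate and the omission of caerulein 9 and 18 were chosen after seeing the data. The list mean difference in pancreas, 0.97, was 1.95 with a pseudocount of 0.1 count and 0.45 with 5 counts, 2.30 over the members that passed the filter, 1.42 for the log2 ratio of summed levels and 2.19 with library totals only, a scaling that moved the median of all genes in pancreas to 1.86. With single libraries left out it was 0.83 to 1.0, and in epidermis 0.26 to 0.51. In edgeR no member passed in the interaction, except 5 with no filter and 0 to 2 with single libraries left out. The DESeq2 run did not form the difference of the 2 responses, so it is not counted for the interaction. The control contrast gave 1 with RLE size factors, 22 with library totals only, 1 with a minimum count of 3, 5 with no filter, 1 with DESeq2 and 0 to 2 with single libraries left out. None of these results changed sign. Of the single members, 7 in epidermis (Oas2, Oasl2, Ifih1, Bst2, Gbp3, Ifitm2 and Xaf1) and 3 in pancreas (Oasl1, Stat2 and Parp14) changed sign with a minimum count of 3, with no filter or in DESeq2, none of them called. The cause of these changes was not tested.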
